A study of Mus musculus with 9 samples.

Results

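The primitive streak is the structure of the gastrulating embryo through which epiblast cells leave the epithelium and become mesoderm and endoderm. In the mouse, NODAL, WNT and FGF signals from the epiblast and its neighbouring tissues switch on a set of transcription factors there, and cells passing through the streak lower E-cadherin and migrate. The genes described here are 8 markers of this structure, namely the T-box factors T (Brachyury) and Eomes, the homeobox genes Mixl1, Evx1 and Gsc2, the zinc-finger repressor Snai1, the ligand Fgf8 and the secreted activin antagonist Fst. They were taken by symbol from the deposited gene table, and all 8 are among its 15074 genes. The study showed them as streak markers in these same libraries, so a shared direction among them is not independent evidence.

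RNA-seq covered mouse embryonic stem cells (ESCs) of 3 lines at days 0, 2 and 4 of differentiation, with 1 library for each of the 9 conditions. WT cells are J1 ESCs, 1KO cells are Dnmt1-/- ESCs derived from J1 and lack the maintenance DNA methyltransferase, and 1KO+1CI cells are 1KO ESCs that also carry a transgene for a catalytically inactive DNMT1, driven by the CAG promoter and linked to zeocin resistance. Transgenic cells were isolated as clones, so an effect of the transgene and a property of the clone cannot be told apart. Likewise 1KO is a separately derived line, so loss of Dnmt1 and other properties of that line cannot be told apart. Because 1KO+1CI was made from 1KO, the mutants share such properties, and agreement between them is not that of independent lines. ESCs of all lines were grown on mouse embryonic fibroblast feeders with LIF; for differentiation the feeders were plated out, embryoid bodies were formed for 1 day without LIF, and these were cultured as adherent cells for 3 more days. No condition has a replicate, so the spread between cultures is not known, and differences are given without a test or p-value. Levels are FPKM, which scales reads by transcript length and by library size, and differences are in log2(FPKM + 1), which understates the change of genes with low FPKM.

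The Dnmt1 level followed the labels, with 48.5 to 80.4 FPKM in the WT libraries, 12.3 to 17.4 FPKM in 1KO and 129 to 315 FPKM in 1KO+1CI. If the smallest step between low FPKM values is 1 read, the libraries hold between 20200000 and 28000000 reads. The 10 pluripotent stem cell markers summed to between 1201 and 2171 FPKM in every library, of which Pou5f1 alone made between 632 and 1008 FPKM. Their median level was lower at day 4 than at day 0, at 44.2 against 138 FPKM in WT. It was 36.5 against 159 FPKM in 1KO and 37.8 against 153 FPKM in 1KO+1CI. At day 4 Nanog and Esrrb were at least 2-fold higher and Zfp42 at least 2-fold lower in both mutants than in WT. In bulk RNA, more cells expressing a gene and more RNA per cell cannot be told apart, and this holds for each level below.

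At day 4 each of the 8 streak genes had a higher level in 1KO than in WT, and each had a higher level in 1KO+1CI than in WT as well. A difference of at least 2-fold on the log2(FPKM + 1) scale was reached by 7 of them in 1KO and by 7 in 1KO+1CI, with Gsc2 short of it both times. That exception depends on the 1 FPKM added before the log: with 0.1 or 0.01 added, all 8 genes passed 2-fold in both mutants. The share of all genes past 2-fold was not computed with 0.1 or 0.01 added. Over the whole table, with 1 FPKM added, 1.67% of genes were at least 2-fold higher in 1KO than in WT and 3.01% in 1KO+1CI than in WT. At a 4-fold threshold the members past it were 3 for 1KO and 4 for 1KO+1CI, beside 0.265% and 0.391% of genes. The median difference over the 8 genes was 1.74 for 1KO and 1.95 for 1KO+1CI, beside a median of 0.005 over all genes in both comparisons. Both comparisons use the same WT library. The 2 mutant libraries of day 4 were the highest pair among the 9 libraries for 7 of the 8 genes, with Gsc2 as the exception, and 10.2% of all genes have that order.

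**Figure D1:**
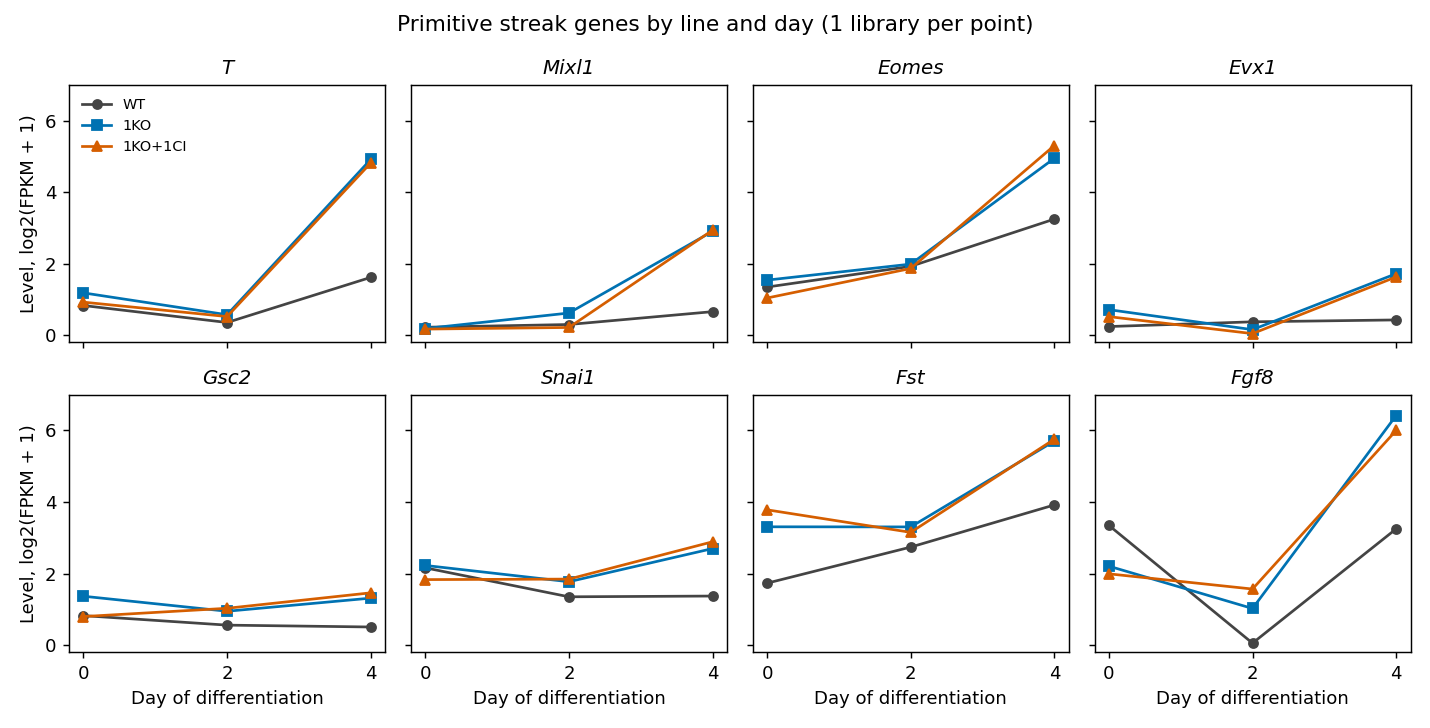
Level of each gene in log2(FPKM + 1) against the day of differentiation, for WT (grey circles), 1KO (blue squares) and 1KO+1CI (orange triangles), with 1 library per point. The mutant lines lie above WT at day 4 in all 8 panels, and at days 0 and 2 the 3 lines lie closer together than at day 4, except for Fst at day 0.

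Promoter sequence is shown because DNMT1 copies methylation at CpG sites, and the number of CpGs before the start site differs widely among genes that shared a direction here. RefSeq (GRCm38.p6) gave a promoter window for 5 of the 8 genes, namely T, Eomes, Evx1, Gsc2 and Snai1, and no window was used for Mixl1, Fst and Fgf8. The windows run from 250 bases before the start to 50 after it. The 250 bases before the start are printed for the 2 T-box genes, for Gsc2, the gene short of 2-fold, and for Snai1, the most CpG-rich of the 5, in the direction of the gene with each CpG in capitals.
T, chr17:8434173-8434422, plus strand: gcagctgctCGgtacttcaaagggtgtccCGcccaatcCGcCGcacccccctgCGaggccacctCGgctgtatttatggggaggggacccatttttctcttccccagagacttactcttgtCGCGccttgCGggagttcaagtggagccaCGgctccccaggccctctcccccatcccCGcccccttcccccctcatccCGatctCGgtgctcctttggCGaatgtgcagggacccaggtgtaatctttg
Eomes, chr9:118477939-118478188, plus strand: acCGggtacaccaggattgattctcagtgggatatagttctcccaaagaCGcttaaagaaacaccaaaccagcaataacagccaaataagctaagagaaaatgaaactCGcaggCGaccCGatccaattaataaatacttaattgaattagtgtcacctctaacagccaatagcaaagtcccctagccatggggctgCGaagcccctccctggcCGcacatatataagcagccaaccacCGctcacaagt
Gsc2, chr16:17915028-17915277, minus strand: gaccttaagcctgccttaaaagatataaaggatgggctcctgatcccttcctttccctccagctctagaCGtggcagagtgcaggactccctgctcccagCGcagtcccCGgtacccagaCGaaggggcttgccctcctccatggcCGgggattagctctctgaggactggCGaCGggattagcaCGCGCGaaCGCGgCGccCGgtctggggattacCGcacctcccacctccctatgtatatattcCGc
Snai1, chr2:167537945-167538194, plus strand: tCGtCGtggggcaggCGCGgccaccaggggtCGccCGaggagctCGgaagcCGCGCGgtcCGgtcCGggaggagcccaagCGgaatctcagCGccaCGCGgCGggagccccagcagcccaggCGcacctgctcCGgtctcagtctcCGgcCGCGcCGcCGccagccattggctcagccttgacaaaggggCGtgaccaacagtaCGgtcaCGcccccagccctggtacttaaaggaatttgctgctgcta
These stretches hold 14, 8, 16 and 27 CpGs. In the full windows Snai1 has 34 CpGs and an observed-to-expected CpG ratio of 0.925, and 7.73% of the 32851 promoters have as many CpGs. Gsc2 has 24, T has 17, Evx1 has 12 and Eomes has 10, and as many are found in 20%, 31.4%, 39.6% and 43.5% of promoters, against a median of 7. So the 5 genes range from CpG-rich to close to the bulk of promoters. Methylation of these sites was not analysed here.

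A search of the same windows on both strands gave few matches to sites of streak regulators. The letters CTTTGAA, a TCF/LEF core for WNT signalling, occur in T on the minus strand at position -235 from the start, and in 5.14% of all promoters. CAGACA, a SMAD element, occurs in Evx1 on the minus strand at position -112, and in 21% of promoters. TATAAA occurs in Gsc2 at position -227 and in 13.6% of promoters. The T-box site TCACACCT, the other TCF/LEF core CTTTGAT and the FOXH1 letters AATCCACA and AATACACA occur in none of the 5 windows, beside 1.28%, 3.73%, 0.855% and 0.98% of promoters. These matches describe letters in a window and not binding.

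T, on chromosome 17 (GRCm38, GENCODE M21, 8434423 to 8442496, plus strand), encodes Brachyury, the factor that marks the whole streak and is required for posterior mesoderm. In WT the levels at days 0, 2 and 4 were 0.782, 0.282 and 2.07 FPKM (33, 14 and 89 reads). In 1KO the levels were 1.28, 0.490 and 29.2 FPKM (73, 21 and 1351 reads), and in 1KO+1CI 0.901, 0.438 and 27.2 FPKM (44, 19 and 1120 reads). The 2 mutant day 4 libraries therefore stand far above the other 7, which all lie within 2.07 FPKM. The day 4 ratio of FPKM was 14.1 for 1KO over WT and 13.1 for 1KO+1CI over WT, with exact 95% Clopper-Pearson intervals of 11.4 to 17.7 and 10.6 to 16.5. These intervals and those below cover the counting of reads only, without the variation between cultures, and are not adjusted for the number of ratios. T also had a dip that all 3 lines share: the day 2 level was 0.361 times the day 0 level in WT (0.178 to 0.692), 0.384 times in 1KO (0.224 to 0.631) and 0.486 times in 1KO+1CI (0.268 to 0.851). The day 4 level was 7.35 times the day 2 level in WT (4.17 to 14.0), 59.7 times in 1KO (38.9 to 96.8) and 62.1 times in 1KO+1CI (39.5 to 103). WT day 4 thus differs from WT day 2 in the same direction as the mutants do, to a level still under that of either mutant. At day 0 the 1KO level of T was 1.63 times that of WT (1.07 to 2.54), and 1KO+1CI and WT were within counting error.

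Eomes, on chromosome 9 (118478212 to 118486132, plus strand), encodes Eomesodermin, the T-box factor needed for definitive endoderm and for cells to leave the streak. Its values are means over transcripts, so reads and intervals are not given. Its WT levels at days 0, 2 and 4 were 1.55, 2.81 and 8.51 FPKM, those of 1KO were 1.91, 2.98 and 29.9 FPKM, and those of 1KO+1CI were 1.06, 2.65 and 38.5 FPKM. All 3 lines had their lowest level at day 0 and their highest at day 4, and at day 2 the lines differed little. The day 4 ratio of FPKM to WT was 3.51 for 1KO and 4.53 for 1KO+1CI, and WT itself had its highest level at day 4. From day 0 to day 4 the difference was 1.90 for WT, 3.41 for 1KO and 4.26 for 1KO+1CI, and in 1KO+1CI only 1 gene of those expressed had a larger one. The antisense gene Gm33460 shares 118 exonic bases with Eomes, and whether strand was used in counting is not given in the sources used here.

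Mixl1, on chromosome 1 (180693043 to 180697034, minus strand), encodes a paired-type homeobox factor of the streak that acts in mesendoderm. In WT it was at 0.169, 0.233 and 0.581 FPKM at days 0, 2 and 4 (8, 13 and 28 reads). The 1KO levels were 0.140, 0.540 and 6.50 FPKM (9, 26 and 337 reads), and those of 1KO+1CI were 0.128, 0.164 and 6.66 FPKM (7, 8 and 308 reads). At day 0 the gene was thus at 7 to 9 reads in every line, and at day 4 the mutants stood apart from all other libraries. The day 4 ratio to WT was 11.2 in 1KO (7.60 to 17.1) and 11.5 in 1KO+1CI (7.78 to 17.5). At day 2 the mutants differed from each other: 1KO was 2.32 times WT (1.15 to 4.92), while 1KO+1CI was 0.304 times 1KO (0.119 to 0.692). On the log2(FPKM + 1) scale that 1KO difference from WT was 0.32, under the 2-fold threshold, and it rests on 26 and 13 reads.

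Evx1, on chromosome 6 (52313498 to 52318378, plus strand), encodes an even-skipped homeobox factor of the posterior streak. In WT it was at 0.185, 0.299 and 0.347 FPKM (11, 21 and 21 reads), with every step between days within counting error. In 1KO it was at 0.644, 0.116 and 2.30 FPKM (52, 7 and 150 reads), and in 1KO+1CI at 0.436, 0.033 and 2.10 FPKM (30, 2 and 122 reads). The mutants were therefore above WT at day 0, below it at day 2 and above it at day 4. The ratios of 1KO to WT were 3.48 at day 0 (1.80 to 7.41), 0.388 at day 2 (0.139 to 0.944) and 6.63 at day 4 (4.19 to 11.04). Those of 1KO+1CI to WT were 2.36 (1.15 to 5.22), 0.110 (0.0124 to 0.447) and 6.05 (3.79 to 10.1). The antisense gene Evx1os shares 73 exonic bases with Evx1, and its reads cannot be told apart from those of Evx1 if strand was not used.

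Gsc2, on chromosome 16 (17913107 to 17915059, minus strand), encodes a homeobox protein related to goosecoid. Its 9 levels ran from 0.420 to 1.75 FPKM. WT had 0.769, 0.472 and 0.420 FPKM (18, 13 and 10 reads), 1KO had 1.58, 0.926 and 1.48 FPKM (50, 22 and 38 reads), and 1KO+1CI had 0.739, 1.04 and 1.75 FPKM (20, 25 and 40 reads). The step taken as 1 read implies a transcript of 1132 bases, whereas the RefSeq transcript of Gsc2 has 725 bases. The reason for this mismatch was not tested. In order of level, 1KO+1CI day 4, 1KO day 0 and 1KO day 4 are the highest 3, and no library in that order differs from the next beyond counting error. Libraries further apart in that order can, as the day 4 ratios to WT show. At day 4 the ratio to WT was 3.53 in 1KO (1.73 to 7.95) and 4.17 in 1KO+1CI (2.05 to 9.35), and the differences in log2(FPKM + 1) were 0.81 and 0.96. With 0.1 FPKM added in place of 1, Gsc2 differed by 1.61 and 1.83, and with 0.01 by 1.80 and 2.04. In 1KO the gene was already 2.05 times WT at day 0 (1.18 to 3.73), and its day 4 level was 0.941 times its day 0 level (0.601 to 1.47). Gsc, the related organizer gene, has no entry among the genes used here.

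Snai1, on chromosome 2 (167538195 to 167542814, plus strand), encodes the zinc-finger repressor of E-cadherin that acts as cells leave the streak. In WT it was at 3.47, 1.55 and 1.59 FPKM (116, 61 and 54 reads). In 1KO it was at 3.68, 2.41 and 5.49 FPKM (167, 82 and 201 reads), and in 1KO+1CI at 2.56, 2.59 and 6.40 FPKM (99, 89 and 209 reads). So WT was lower at days 2 and 4 than at day 0, with a day 4 to day 0 ratio of 0.458 (0.325 to 0.638), while the mutants were highest at day 4, with ratios of 1.49 in 1KO (1.21 to 1.84) and 2.50 in 1KO+1CI (1.96 to 3.21). At day 4 the ratio to WT was 3.46 in 1KO (2.55 to 4.76) and 4.04 in 1KO+1CI (2.98 to 5.55). At day 2 it was 1.56 (1.11 to 2.21) and 1.67 (1.195 to 2.36).

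The other genes of epithelial to mesenchymal transition showed few differences of that size at day 4. None of the 10 epithelial and none of the 10 mesenchymal genes in the lists was at least 2-fold different between 1KO and WT, with medians of 0.22 and 0.03. In 1KO+1CI against WT, the keratins Krt8 (177 against 65.3 FPKM) and Krt18 (145 against 69.9 FPKM) and the intermediate filament gene Vim (158 against 77.9 FPKM) were at least 2-fold higher, and none was lower. Cdh1, which encodes E-cadherin and which Snai1 represses, was at 268 FPKM for WT, 187 for 1KO and 213 for 1KO+1CI, and Cdh2, which encodes N-cadherin, was at 6.21, 5.39 and 7.40 FPKM. Neither cadherin passed 2-fold at day 4.

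Fgf8, on chromosome 19 (45736798 to 45742915, minus strand), encodes the FGF ligand through which streak cells migrate away. Its values are means over transcripts. WT had 9.17, 0.038 and 8.51 FPKM at days 0, 2 and 4, 1KO had 3.62, 1.03 and 84.5 FPKM, and 1KO+1CI had 2.98, 1.96 and 63.0 FPKM. All lines were lowest at day 2, where the WT value corresponds to about 1 read given the lengths of its transcripts. No ratio of FPKM against that library is therefore given, and log2 differences from it rest on that read. At day 0 WT was the highest of the lines, and at day 4 both mutants were above it, with ratios of FPKM of 9.93 for 1KO and 7.41 for 1KO+1CI. In log2(FPKM + 1) the 1KO difference from WT was therefore -1.14 at day 0, 0.97 at day 2 and 3.17 at day 4, and that of 1KO+1CI was -1.36, 1.51 and 2.75. In WT the day 4 level lay near the day 0 level, with a difference of -0.10, whereas 1KO and 1KO+1CI were 4.21 and 4.01 higher than at day 0. Only 2 expressed genes had a larger day 0 to day 4 difference in 1KO and 3 in 1KO+1CI.

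Of 12 FGF receptors and feedback targets of ERK signalling, none was at least 2-fold different between 1KO and WT at day 4, and their median was -0.05. In 1KO+1CI against WT the receptor gene Fgfr2 was higher (6.84 against 2.31 FPKM) and no other passed 2-fold, with a median of 0.11. Fgf4, the FGF ligand of ESCs and early epiblast, was lower in both mutants, at 21.4 FPKM for WT, 6.11 for 1KO and 5.14 for 1KO+1CI, so the 2 ligands differed from WT in opposite directions.

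Fst, on chromosome 13 (114452290 to 114458951, minus strand), encodes follistatin, which binds activin and keeps it from its receptors. Its values are means over transcripts, and the antisense gene Gm47040 shares 115 of its exonic bases. WT was at 2.32, 5.68 and 14.1 FPKM, 1KO at 8.90, 8.88 and 51.1, and 1KO+1CI at 12.8, 7.89 and 53.0. WT was the lowest line on every day, with ratios of 1KO to WT of 3.84, 1.56 and 3.62 and of 1KO+1CI to WT of 5.50, 1.39 and 3.76. On the log2(FPKM + 1) scale Fst was at day 0 the only member at least 2-fold higher in either mutant than in WT (by 1.58 for 1KO and 2.05 for 1KO+1CI), and Fgf8 was the only member at least 2-fold lower. As ratios of FPKM, Evx1 in both mutants and Gsc2 in 1KO, given above, were also past 2 at day 0, at levels under 2 FPKM. Among all genes 2.24% were at least 2-fold higher and 1.55% lower in 1KO at day 0, and 2.54% and 1.97% in 1KO+1CI.

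Feeder fibroblast markers moved with Fst at day 0. Of the 14 markers 13 are in the table, and 12 of them were higher in 1KO and 12 in 1KO+1CI than in WT at day 0, 5 and 6 of them at least 2-fold. Over all genes, 48.9% were higher in 1KO and 47.1% in 1KO+1CI than in WT at day 0. The summed level of the 13 markers was 256 FPKM for WT, 402 for 1KO and 427 for 1KO+1CI, and none of the 13 was under 1 FPKM. The fibroblast collagen gene Col1a1 was at 39.0, 76.0 and 74.4 FPKM, and Inhba, which encodes the activin A subunit, was at 3.12, 9.28 and 14.6 FPKM. The part of feeder RNA in the Fst level of day 0 was not tested. At days 2 and 4 Col1a1 lay between 3.76 and 9.86 FPKM and Col3a1 between 0.364 and 1.55 FPKM in all lines. The day 4 sum of the list was 212 FPKM for WT, 241 for 1KO and 602 for 1KO+1CI, of which Acta2 and Tagln, genes of contractile cells as well, made 147 and 417 FPKM in 1KO+1CI. In 1KO at day 4, 9 of the 13 markers were higher than in WT and 4 lower, none of them at least 2-fold, beside 50.7% of all genes higher. Fst was 1.78 higher there in log2(FPKM + 1), and the part of feeder RNA in it was not tested. In 1KO+1CI at day 4, where 4 of the 13 markers (Acta2, Tagln, Col1a2 and Col5a1) were at least 2-fold higher than in WT, the part of such cells in the streak genes was not tested.

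**Figure D2:**
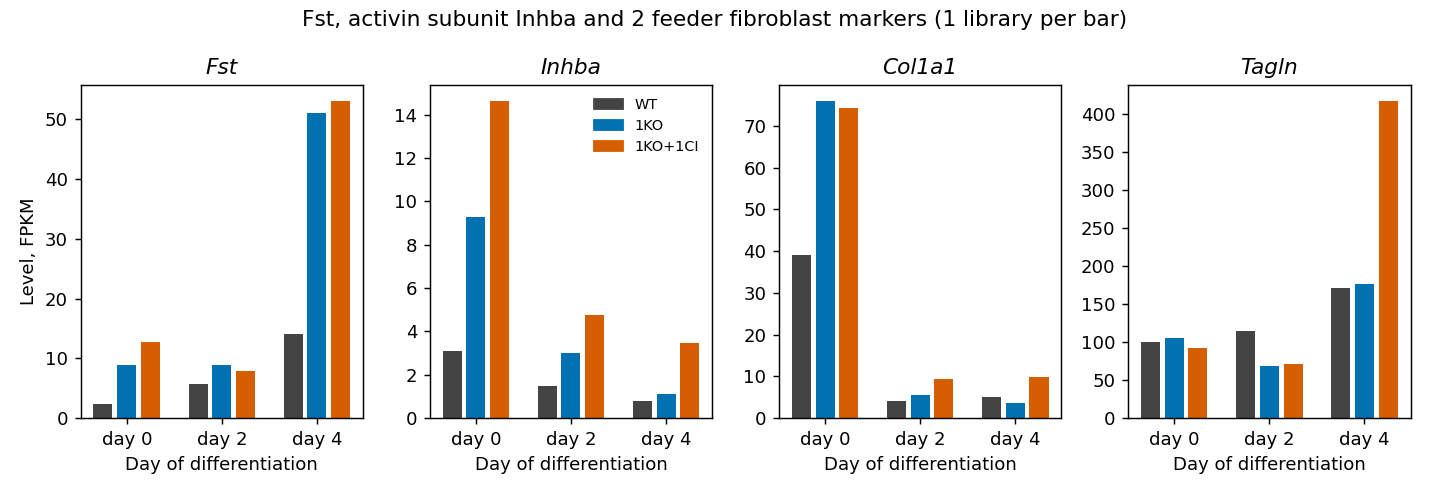
Level in FPKM of Fst, of the activin subunit gene Inhba and of the fibroblast markers Col1a1 and Tagln, by day and line (WT grey, 1KO blue, 1KO+1CI orange), with 1 library per bar. At day 0 Fst, Inhba and Col1a1 are all higher in the mutants, and at day 4 Fst is higher in both mutants, Col1a1 is low in all lines and Tagln stands out in 1KO+1CI.

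Of the 6 genes for activin subunits and receptors, none was at least 2-fold different between 1KO and WT at day 4, and their median was 0.26. In 1KO+1CI Inhba was higher than in WT (3.47 against 0.774 FPKM), and it was also the only gene of that list past 2-fold between 1KO+1CI and 1KO. Nodal, the ligand that Lefty proteins antagonize and which the study also counts as a streak gene, was at 40.9 FPKM for WT, 76.0 for 1KO and 75.7 for 1KO+1CI at day 4, under 2-fold.

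**Figure D3:**
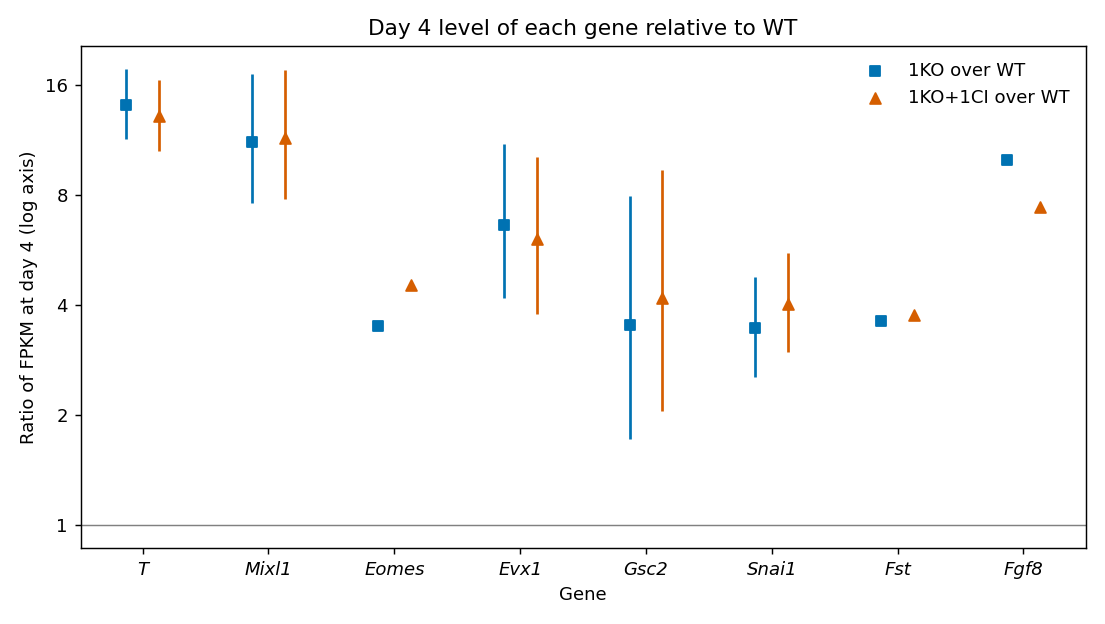
Ratio of FPKM at day 4 to the WT library, on a log axis, for 1KO (blue squares) and 1KO+1CI (orange triangles), with 1 library per line; vertical lines are exact 95% intervals for the counting of reads, drawn for the 5 genes whose values are whole numbers of reads. Every ratio lies above 1, T and Mixl1 are the highest for both lines, and the 2 mutant lines lie close together for each gene.

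Between the mutant lines no member differed by 2-fold at day 4. Of the 8 genes, 5 were higher and 3 lower in 1KO+1CI than in 1KO, with a median difference of 0.04, and the differences ran from -0.42 for Fgf8 to 0.36 for Eomes. Over all genes of the table, 0.624% were at least 2-fold higher and 0.292% lower. The ratios of 1KO+1CI to 1KO were 0.930 for T (0.858 to 1.01), 1.03 for Mixl1 (0.876 to 1.2), 0.912 for Evx1 (0.713 to 1.17), 1.18 for Gsc2 (0.738 to 1.89) and 1.17 for Snai1 (0.956 to 1.42). All 5 intervals include 1, and by counting error alone a difference larger than 1.2-fold is outside the interval for Mixl1 and one larger than 1.89-fold for Gsc2. At day 0 all 5 ratios lay further from 1 than at day 4, and 2 of the intervals excluded 1, with 1KO+1CI at 0.469 times 1KO for Gsc2 (0.264 to 0.802) and 0.695 times for Snai1 (0.536 to 0.896).

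Over the course of differentiation the step from day 2 to day 4 had larger medians in the mutants than in WT. Before that step, at day 0, Fst and Fgf8 were already at least 2-fold different from WT in both mutants. T, Mixl1, Evx1, Gsc2 and Snai1 each also differed from WT beyond counting error in some mutant library of day 0 or day 2. From day 0 to day 2 the median difference over the 8 genes was -0.09 for WT, -0.44 for 1KO and -0.20 for 1KO+1CI. In that step Fst was at least 2-fold higher in WT and Fgf8 at least 2-fold lower in WT and in 1KO, beside 2.18% of genes higher and 3.87% lower in WT and 3.32% lower in 1KO. From day 2 to day 4 the median was 0.77 for WT, 2.34 for 1KO and 2.66 for 1KO+1CI. At least 2-fold higher in that step were 4 members in WT (T, Eomes, Fst and Fgf8), 6 in 1KO and 7 in 1KO+1CI, beside 3.83%, 3.89% and 3.62% of all genes. Snai1 made the difference between the mutants, at 0.93 in 1KO and 1.04 in 1KO+1CI. The Fgf8 steps in WT, to and from day 2, rest on a day 2 level of about 1 read.

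Between days 0 and 4, 2 members were at least 2-fold higher in WT (Eomes and Fst), 6 in 1KO and 7 in 1KO+1CI, beside 1.98%, 4.17% and 4.78% of genes. The medians were 0.31, 2.56 and 2.37. At a 4-fold threshold the mutants changed order, with 1 member in WT, 5 members for 1KO and 4 for 1KO+1CI, beside 0.146%, 0.511% and 0.69% of genes. Day 4 was the highest day for 5 of the 8 genes in WT, for 7 in 1KO and for 8 in 1KO+1CI, and 33.9%, 37.1% and 35.7% of all genes are highest at day 4. Between these endpoints Fst was the member whose differences lay nearest to each other, at 2.19, 2.40 and 1.97, so its higher day 4 level in the mutants goes with a higher day 0 level. The steps between differed, with Fst at 1.01 from day 0 to day 2 for WT, -0.003 for 1KO and -0.63 for 1KO+1CI. For T (0.79, 3.73 and 3.89), Mixl1 (0.44, 2.72 and 2.76) and Evx1 (0.19, 1.01 and 1.11) the course was steeper in both mutants. At day 2 itself, on the log2(FPKM + 1) scale, none of the members was at least 2-fold higher in 1KO than in WT, beside 1.6% of genes. Fgf8 alone was in 1KO+1CI, beside 2.28%, against a WT level of about 1 read. As ratios of FPKM to WT, Mixl1 in 1KO (2.32, 1.15 to 4.92) and Gsc2 in 1KO+1CI (2.21, 1.09 to 4.70) were also past 2, at levels under 2 FPKM.

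Other genes of the streak, from lists drawn up for its factors and signals, showed the same direction in part. Of the 8 other streak transcription factors in the table, 3 were at least 2-fold higher and none lower in 1KO than in WT at day 4, and 3 and none in 1KO+1CI, with list medians of 0.27 and 0.35. Of all genes, 1.67% were at least 2-fold higher in 1KO and 3.01% in 1KO+1CI, shares that also stand beside the ligand and antagonist counts below. Sp5, a target of WNT signalling, was at 1.54 FPKM for WT, 15.6 for 1KO and 25.6 for 1KO+1CI. Foxa2, the factor of the anterior streak and endoderm, was at 0.503, 2.42 and 2.46 FPKM. Both genes passed 2-fold in both mutants, while Lhx1 did so only in 1KO (0.252, 1.56 and 0.822 FPKM) and Cdx4 only in 1KO+1CI (0.060, 0.499 and 1.24 FPKM), and the differences between the mutants were under 2-fold. Mesp1 and Tbx6, which mark cells leaving the streak, have no entry among the genes used here, so no level can be given.

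Of 15 streak signalling ligands, 3 were at least 2-fold higher in 1KO and 2 in 1KO+1CI, with Fgf4 lower in both, and the medians were 0.19 and 0.36. The WNT genes led the list. Wnt8a was at 3.67, 25.5 and 22.2 FPKM and Wnt3, the WNT ligand that starts streak formation, at 3.33, 8.44 and 14.7 FPKM in WT, 1KO and 1KO+1CI. The study names Wnt3, like T, as a streak marker in these same libraries, so the direction of Wnt3 is not independent evidence either. Wnt5b was at 1.34, 4.70 and 3.38 FPKM and passed 2-fold in 1KO. Of 9 secreted antagonists, Lefty2, an inhibitor and target of NODAL, was at least 2-fold higher in both mutants (36.4, 129 and 123 FPKM) and no other was in either. These lists had a few genes far from 0 and most near it. The 8 members, with medians of 1.74 and 1.95, were shown by the study as markers in these same libraries. Their larger medians are therefore not independent evidence about them.

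**Figure D4:**
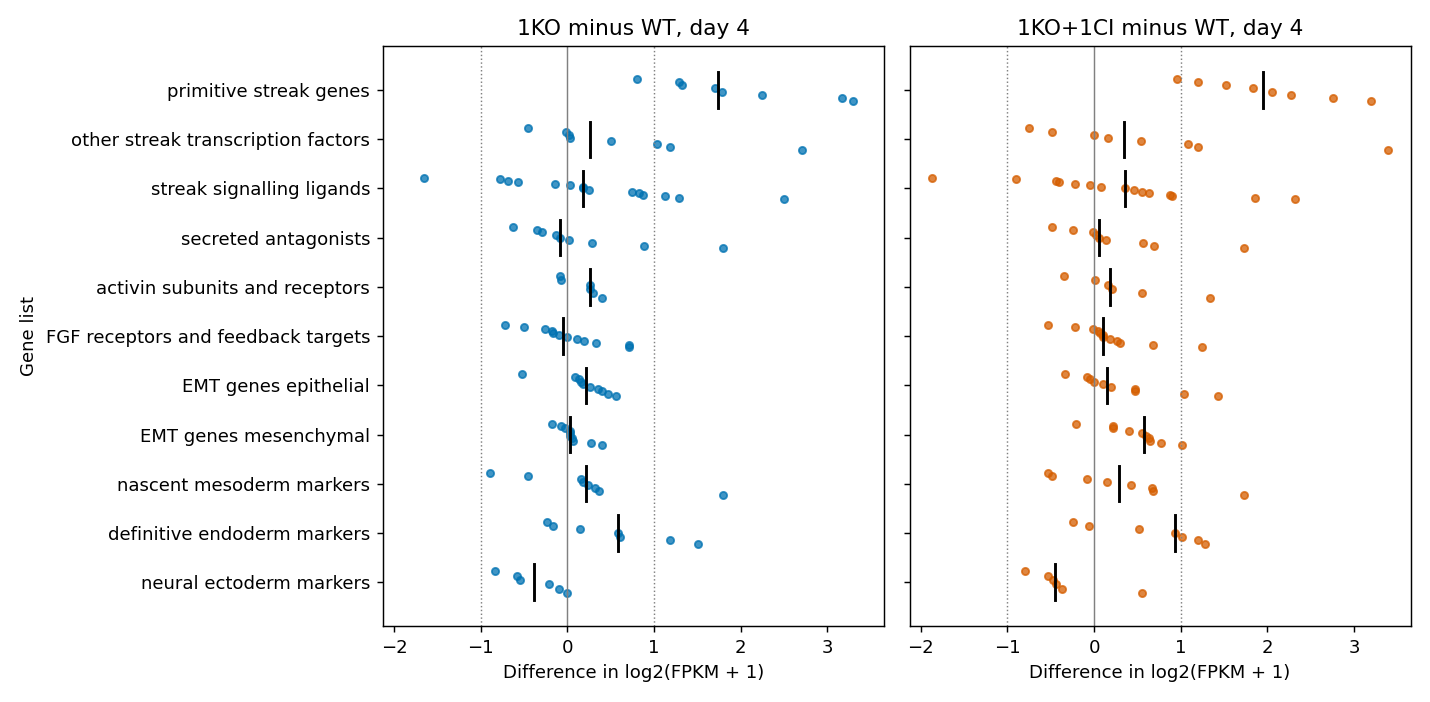
Difference in log2(FPKM + 1) at day 4 between 1KO and WT (left, blue) and between 1KO+1CI and WT (right, orange) for each gene of the streak genes and of 10 further lists, with 1 library per line; black bars are list medians and dotted lines mark 2-fold. All 8 streak genes lie right of 0 in both panels, whereas the other lists spread around 0 with single genes such as Sp5, Wnt8a and Lefty2 far to the right.

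Markers of neighbouring fates were examined in the same libraries. Beside the counts below, 1.67% of all genes were at least 2-fold higher at day 4 in 1KO than in WT and 3.01% in 1KO+1CI than in WT. Over all genes, 50.7% had a higher level in each mutant than in WT, and 50% in 1KO+1CI than in 1KO. Of 8 nascent mesoderm markers, Lefty2 alone was at least 2-fold higher at day 4 in each mutant than in WT, with medians of 0.21 and 0.29. Of 7 definitive endoderm markers, 2 were in 1KO and 3 in 1KO+1CI, including Foxa2 and the peptide hormone gene Trh (267 FPKM for WT, 762 for 1KO and 650 for 1KO+1CI), with medians of 0.58 and 0.94. None of 6 neural ectoderm markers passed 2-fold, and their medians were -0.38 and -0.45. Of 8 trophoblast markers, Tfap2c was at least 2-fold higher in both mutants (1.27, 3.79 and 4.37 FPKM) and Krt8 in 1KO+1CI. Of 12 primitive endoderm markers, 10 had a higher level in 1KO than in WT at day 4 and 2 of these passed 2-fold, while all 12 had a higher level in 1KO+1CI than in WT and than in 1KO, and 5 passed 2-fold against WT. These were the laminin gene Lama1 (1.11 FPKM for WT, 3.45 for 1KO and 12.3 for 1KO+1CI), Cubn (0.101, 1.71 and 3.08 FPKM), Dab2 (3.74, 8.18 and 11.6 FPKM), the collagen gene Col4a1 (19.3, 24.5 and 46.7 FPKM) and Sox17 (0.305, 0.440 and 1.63 FPKM). The list summed to 171, 208 and 356 FPKM, and the lineage factors Gata4 and Gata6 were at no more than 2.12 and 1.29 FPKM at day 4. The part of primitive endoderm cells in the levels of Eomes, Fst and the other members was not tested.

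Likeness of pattern was measured as the root mean square difference between 2 genes in log2(FPKM + 1), each centred on its mean over the 9 libraries, among the 13288 genes with at least 1 FPKM in some library. The genes nearest to T were the neurofilament gene Nefl (0.55), Ppp4r4 (0.56), Eomes (0.61), Mogat2 (0.65) and Rtl8c (0.66). Nearest to Eomes were Nefl (0.33), Wnt3 (0.44), the ephrin receptor gene Epha1 (0.53), Mixl1 (0.54) and T (0.61), and nearest to Fgf8 were Ppp4r4 (0.71), T (0.73), Psmb8 (0.91), Sp5 (0.91) and Mogat2 (0.93). Among 13287 genes ranked by likeness to T, Eomes was in place 3, Mixl1 in 6, Fgf8 in 9 and Fst in 14. Evx1 was in place 127, Snai1 in 387 and Gsc2 in 1435. By likeness to Eomes the order was Mixl1 in place 4, T in 5, Fst in 14, Evx1 in 232, Fgf8 in 478, Snai1 in 940 and Gsc2 in 2413. By likeness to Fgf8 it was T in place 2, Eomes in 12, Mixl1 in 27, Fst in 71, Evx1 in 254, Snai1 in 426 and Gsc2 in 1860. T, Eomes, Mixl1 and Fst were thus within the nearest 71 genes in each of these rankings, Snai1 and Gsc2 were the last 2 members in each, and the place of Fgf8 depended on the gene of reference. The 9 points of each pattern share their libraries, and the measure is a description. It is centred but not scaled, so it depends on the size of a change as well as on its shape. Genes at low FPKM such as Gsc2 and Evx1, whose changes are understated, can therefore rank far from T.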

How the data were processed

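RNA was taken from 3 ESC lines at 3 days, with 1 library for each of the 9 conditions. Per the study's methods and the submitters' processing notes, the authors trimmed paired reads (Trim Galore), aligned them to mm10 (HISAT2), converted the alignments (SAMtools) and obtained normalized values from the HOMER program analyzeRepeats.pl. The values deposited by the authors are FPKM, which scale with transcript length and library size. Tool versions, gene annotation, use of strand and treatment of multiply mapped reads are not given in these sources. Only the table of genes was used, and the table of repeat copies was not. Of 15095 entries, 1 named 0 and 20 with a date in place of a symbol were left out (up to 0.117% of the summed FPKM), which left 15074 genes. The table holds no value of 0 and no columns of other samples. The columns of the transgenic line bear a number that the sources do not explain, and were taken as 1KO+1CI from their day and genotype label.

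Differences between single libraries were computed in log2(FPKM + 1), and a difference of at least 1 (2-fold) was counted. Depth was recovered from low values: for genes with 1 transcript, a step was sought that divides each depth-scaled value into a whole number, within 0.00055 FPKM plus 0.05%, and at most 0.1 of a step. This gave whole reads for 1590 of 3509 such genes (45.3%), too few for a count test, and for 5 members. A step is taken as 1 read; if a read pair was counted as 2, the counting error is larger than stated. Ratios have exact 95% Clopper-Pearson intervals. The steps and counts were tested on simulated data.

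The 8 members and all gene lists were chosen with earlier results of these data known. From the 7 lists of streak regulators, signalling and epithelial to mesenchymal transition, genes are named that were at least 2-fold different from WT in either mutant line at day 4, at most 6 a list and with at least 1 FPKM in some library, as well as Nodal, Wnt3, Gsc, Foxa2, Mesp1, Cdh1 and Cdh2. For likeness, the 5 nearest genes to T, Eomes and Fgf8 are named. From the lists of cell type markers, which that rule does not cover, genes were named after their values were seen. Tbx6, which has no entry, was named outside that rule as well. Counts over a list are of its genes with an entry, and listed genes without one are left out of them. Alternatives were pseudocounts of 0.1 and 0.01, scaling to a common sum (TPM), median-ratio scaling, the mean, the addition of Nodal, a 4-fold threshold, a minimum of 1 FPKM and, chosen after seeing the data, the omission of Fst. Positions are from GENCODE M21 and promoters from RefSeq. Python 3.11.15 was used, with scipy 1.17.1, matplotlib 3.10.9, pandas 2.3.3 and numpy 2.4.6.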

Additional observations from a re-analysis of the deposited data

Results flagged for a closer look

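For 3 genes the change from day 0 to day 4 ran in opposite directions in 2 lines. Each is a difference of single libraries in log2(FPKM + 1), and none was tested. For Fgf8 the change was -0.10 for WT, 4.21 for 1KO and 4.01 for 1KO+1CI, so 1KO exceeded WT by 4.31 and 1KO+1CI exceeded it by 4.11. The WT change is small, at 9.17 FPKM on day 0 and 8.51 on day 4. For Snai1 the change was -0.79 for WT, 0.47 for 1KO and 1.06 for 1KO+1CI, a difference from WT of 1.26 and of 1.85. For Gsc2 it was -0.32 for WT, -0.05 for 1KO and 0.66 for 1KO+1CI, so that 1KO+1CI exceeded WT by 0.98 and 1KO by 0.72. The Gsc2 values rest on 10 to 50 reads a library, and the WT and 1KO ratios of day 4 to day 0 both have counting intervals that include 1.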

How the results depend on the processing

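The direction of every member difference reported between lines at day 4 and between days 0 and 4 was the same under both scalings. A pseudocount changes the size of a difference but cannot change its direction. Median-ratio scaling moved none of these 48 values by over 0.1 and TPM scaling moved 3, while pseudocounts of 0.1 and 0.01 moved 34 and 35. The median over the members at day 4 for 1KO against WT, 1.74, became 2.14 and 2.27 with those pseudocounts and 1.95 as a mean. For 1KO+1CI against WT it was 1.95, and became 2.23 and 2.37 with the pseudocounts, 2.05 with TPM scaling, 1.84 with Nodal and 2.06 without Fst. From day 0 to day 4 the WT median of 0.31 became 0.98 and 1.13 with the pseudocounts, 0.54 as a mean, and 0.19 both with Nodal and without Fst. The 1KO median of 2.56 became 3.20, 3.24, 2.24 as a mean, 2.40 with Nodal and 2.72 without Fst. The 1KO+1CI median of 2.37 became 3.20, 3.32, 1.97 with Nodal and 2.76 without Fst. At a 4-fold threshold the day 4 counts were 3 in 1KO and 4 in 1KO+1CI against WT, and from day 0 to day 4 they were 1 for WT, 5 for 1KO and 4 for 1KO+1CI, which turns the order of the mutants from 6 against 7 at 2-fold. No share of all genes past 2-fold was computed with the pseudocounts of 0.1 and 0.01. With either of them Gsc2 passed 2-fold at day 4 in both mutants, so both counts of 7 became 8. The WT count of 2 from day 0 to day 4 was 4 with either pseudocount and 1 without Fst. The cause was not tested beyond the construction of each alternative. No paired analysis was possible because each condition has 1 library and the labels give no replicate numbers. Depth limits T, Mixl1, Evx1 and Gsc2, which had under 60 reads in most libraries, and no value has a replicate.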
